A study of Mus musculus with 8 samples.

Results

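The genes described here are 9 imprinted genes tied to growth, Mest, Meg3, H19, Peg3, Plagl1, Cdkn1c, Grb10, Dlk1 and Ndn, out of the 27179 genes with counts. They were taken by name, with earlier results of these data known, and all 9 had a row in the count table. They were measured by bulk RNA-seq in 4 QZ1-hi and 4 QZ1-lo libraries of cells from the lungs of tumor-bearing Eml4-Alk mice. These were female C57BL/6J mice (C57BL/6 in the labels) of 18 to 22 weeks of age, in whose lungs Cas9 and guide RNAs delivered in an adenovirus had rearranged the Eml4 and Alk genes of infected cells 11 to 12 weeks earlier. Each mouse had received 4.5 nmol of QZ1-(PEG2K), a peptide probe whose Cy5 fluorescence is quenched until a protease cuts it, by tail vein 2 h before the lungs were removed. Live cells without CD45 and CD11b were split by their QZ1 signal, gated against EpCAM, and at least 100000 cells of each population were collected. Both populations therefore came from mice with the same tumor induction and probe, shared the exclusion of CD45 and CD11b, and differed in their QZ1 signal. How many cells of either carried the rearrangement was not measured. No untreated or healthy lung was in this experiment, and neither population was a purified cell type.

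An imprinted gene is transcribed mainly from the copy inherited from one parent, because DNA methylation laid down in the egg or sperm marks a control region of its cluster. Many imprinted genes act on fetal growth, some as growth promoters and others as brakes, and many are active in embryonic and mesenchymal tissue and then turned down after birth. Of the genes here, Dlk1, Mest, Ndn, Peg3 and Plagl1 are expressed from the paternal copy, and Meg3, H19, Cdkn1c and, in most tissues, Grb10 from the maternal copy. Total counts do not separate the parental copies, so the values below are sums over both.

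Ndn, Grb10, Meg3 and Dlk1 were higher in QZ1-hi cells, with fitted differences of 8.19-fold, 2.32-fold, 1.84-fold and 2.56-fold. Mest, Peg3 and H19 had fitted differences above 0 that did not pass the test, and Plagl1 and Cdkn1c had fitted differences below 0 that did not pass it either. Thus 4 of the 9 genes were called in the edgeR test at an adjusted p under 0.05, all 4 higher and 0 lower, where 18.1% of the 15583 genes tested were called in either direction and 9.88% were called higher. The same 4 genes had no overlap between the libraries of the populations, with every QZ1-hi library above every QZ1-lo library, as did 11.9% of all genes tested. The median log2 fold change of QZ1-hi over QZ1-lo was 1.22 over the 9 genes and 0.02 over all genes tested. None of the 9 was lower at an unadjusted p under 0.05 either (0), nor in DESeq2 (0) or limma-voom (0). The genes were named with earlier results of these data known, so no test of the list as a whole was made.

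**Figure D1:**
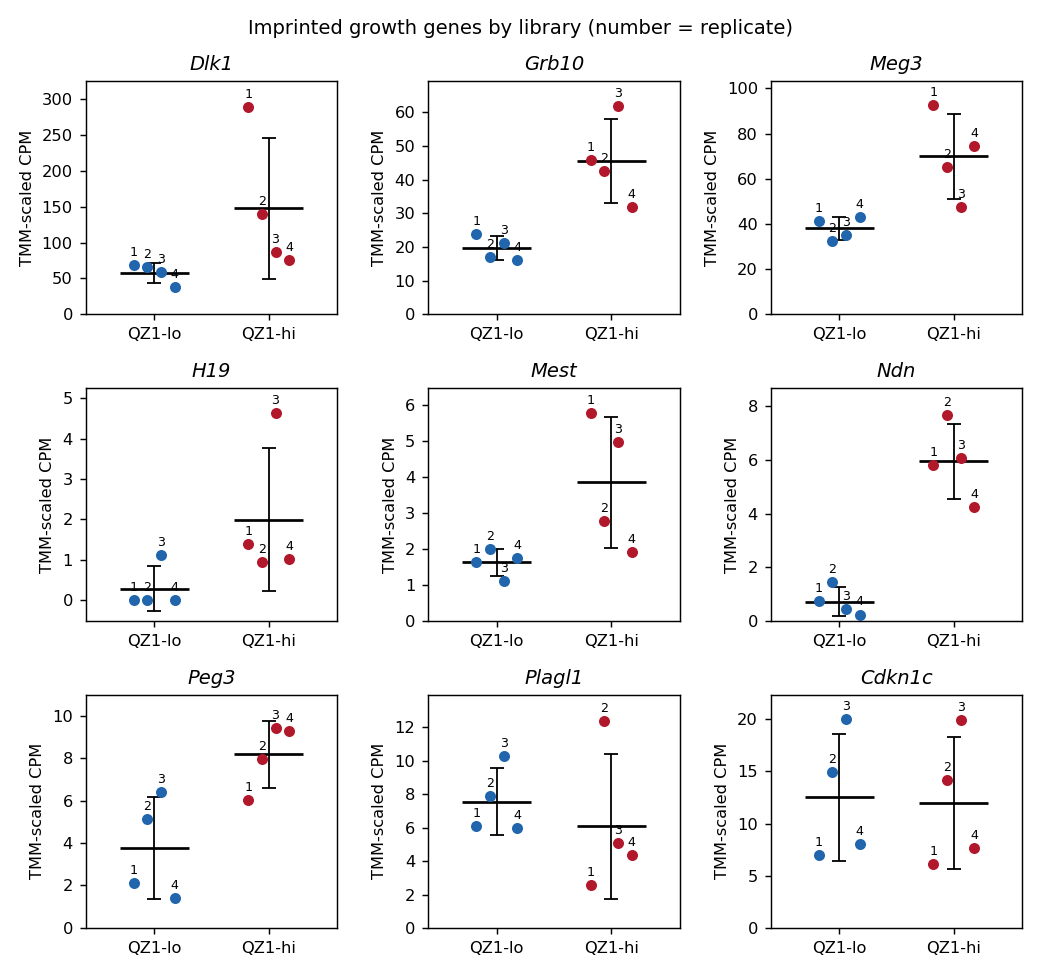
Level of each gene in each library, in CPM scaled by TMM (vertical axis, one scale per gene), with QZ1-lo in blue and QZ1-hi in red. Each numbered point is a library, the wide line is the mean and the bar is ± SD (n = 4). The 4 QZ1-hi points of Dlk1, Grb10, Meg3 and Ndn lie above all 4 QZ1-lo points, and the points of Cdkn1c spread over the same range in both populations.

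**Figure D2:**
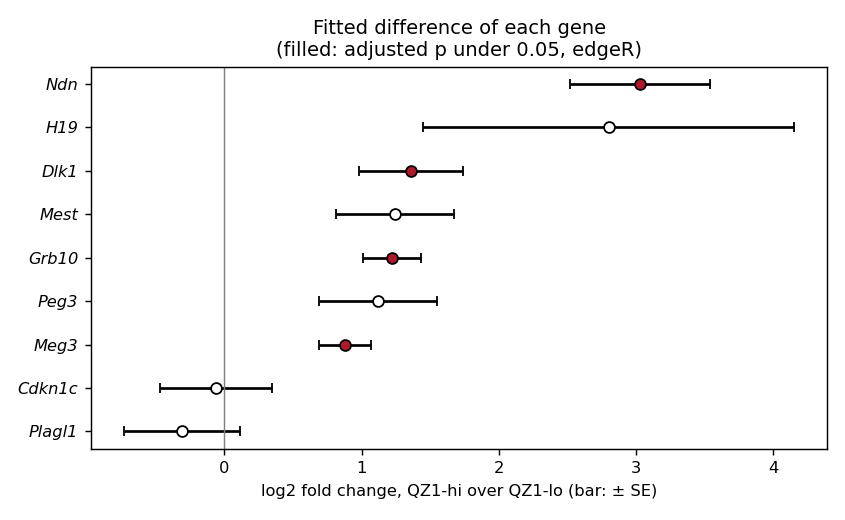
Fitted log2 fold change of QZ1-hi over QZ1-lo for each of the 9 genes (horizontal axis), with a bar of ± SE from the edgeR fit. Filled points are the 4 genes with an adjusted p under 0.05. Ndn has the largest value, 3.03, and H19 the longest bar, with an SE of 1.35.

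Sequence upstream of the first RefSeq start is shown for the called genes whose window there lies outside annotated exons, so that its CpG dinucleotides can be read. Imprinting marks are methylation at CpG, but these windows were not matched to any imprinting control region. The windows are the 250 bases before a RefSeq transcription start in GRCm38.p6, read 5′ to 3′ on the gene's own strand, with each CpG in capitals. RefSeq start windows were found for 7 of the 9 genes (11 windows), with none matched for H19 and Cdkn1c. The 3 windows printed are chr11:12037421-12037670 on the minus strand for Grb10, chr12:109452573-109452822 on the plus strand for Dlk1, and chr12:109540746-109540995 on the plus strand for Meg3.
Grb10: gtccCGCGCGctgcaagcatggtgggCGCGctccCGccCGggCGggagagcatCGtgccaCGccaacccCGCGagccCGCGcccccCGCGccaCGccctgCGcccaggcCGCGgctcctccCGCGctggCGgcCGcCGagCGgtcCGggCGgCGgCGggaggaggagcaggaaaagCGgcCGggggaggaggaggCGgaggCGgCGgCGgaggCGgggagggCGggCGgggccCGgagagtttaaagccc
Dlk1: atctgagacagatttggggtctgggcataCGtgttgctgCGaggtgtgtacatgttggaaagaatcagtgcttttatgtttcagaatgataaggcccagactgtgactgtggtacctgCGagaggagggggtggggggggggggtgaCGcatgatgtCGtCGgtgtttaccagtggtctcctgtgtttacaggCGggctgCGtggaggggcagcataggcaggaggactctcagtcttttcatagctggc
Meg3: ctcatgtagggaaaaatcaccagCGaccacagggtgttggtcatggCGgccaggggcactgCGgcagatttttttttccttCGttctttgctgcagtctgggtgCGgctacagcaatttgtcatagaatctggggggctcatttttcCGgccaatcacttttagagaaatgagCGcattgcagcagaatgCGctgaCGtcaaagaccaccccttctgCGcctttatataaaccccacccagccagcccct
The Grb10 window held 40 CpG, a number that 1.31% of the 32851 RefSeq windows of that length reached, and belonged to the upstream start of the 2 that RefSeq lists for the gene. The window of the other Grb10 start, which is not printed, held 8 CpG, which 43.0% of windows reached. The Meg3 window held 10 CpG, which 37.8% of windows reached, and the Dlk1 window 8, which 43.0% reached. Over the 11 windows of the 9 genes the median was 8 CpG, against 6 over all windows. In the Ndn window, which lies wholly within the single Ndn exon of GENCODE M21 and is not printed, there were 5 CpG.

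Of 3 motifs searched on both strands of these windows, TATAAA occurred in the Meg3 window printed above, 25 bases before the start, and in none of the other windows of these genes, while 12.4% of all windows hold it. GGGCGG, the core letters of a GC box, occurred in windows of Mest, Plagl1 and Grb10, and in 32.7% of all windows. GGGGCCCC occurred only in the Peg3 window among these genes and in 0.889% of all windows. No window of these genes held more than 1 of the 3 motifs, and GGGGCCCC reads the same on both strands. A match describes these letters only.

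Ndn encodes necdin, a MAGE family protein best known from postmitotic neurons, and showed the largest difference of the 9 genes. The gene (Entrez 17984) lies on chr7:62346569-62350262 in mm10, on the plus strand, as a single exon. QZ1-hi libraries held 5.81, 7.66, 6.07 and 4.23 CPM (counts scaled to library size by TMM) in replicates 1 to 4, and QZ1-lo libraries 0.745, 1.46, 0.434 and 0.246 CPM. All 4 QZ1-hi libraries lay above the highest QZ1-lo library. QZ1-hi averaged 5.94 ± 1.40 CPM (SD, n = 4) and QZ1-lo averaged 0.722 ± 0.536 (SD, n = 4), for a log2 fold change of 3.03 (SE 0.51, edgeR adjusted p = 0.0019). The call held in each alternative that gave a value, with log2 fold changes from 2.64 to 3.61. These levels rest on 71 to 155 counts per QZ1-hi library and 6 to 36 per QZ1-lo library. Its neighbours in the central chromosome 7 cluster did not share the call: Ube3a, a ubiquitin ligase, was at 0.11 on the log2 scale (SE 0.12, adjusted p = 0.624), and Magel2, another MAGE gene, had 0 counts in all 8 libraries.

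Grb10 encodes an adaptor protein that binds the insulin and IGF1 receptors and dampens their signal. The gene (Entrez 14783) lies on chr11:11930508-12038683, on the minus strand. In QZ1-hi it stood at 45.7, 42.6, 61.9 and 31.8 CPM, and in QZ1-lo at 23.7, 17.1, 21.3 and 16.1 CPM. The lowest QZ1-hi library was thus above the highest QZ1-lo library. QZ1-hi averaged 45.5 ± 12.5 CPM (SD, n = 4) and QZ1-lo 19.6 ± 3.57 (SD, n = 4), with a log2 fold change of 1.22 (SE 0.21, edgeR adjusted p = 0.00198). The call held without each library in turn (log2 fold change 1.00 to 1.38) and was lost when counts were scaled by library size alone (0.77, adjusted p = 0.0721), a scaling that moved the median over all genes to -0.44.

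Dlk1 encodes a membrane protein with EGF-like repeats, related to Notch ligands and known for holding precursor cells back from differentiating. Its gene (Entrez 13386) lies on chr12:109452823-109463336, on the plus strand. Levels were 288, 139.8, 86.5 and 75.3 CPM in QZ1-hi and 68.5, 65.6, 58.4 and 38.1 CPM in QZ1-lo. The populations did not overlap, but the margin was narrow, and QZ1-hi replicate 1 held 3.83 times the level of the lowest QZ1-hi library. The average was 147.5 ± 98.1 CPM (SD, n = 4) for QZ1-hi and 57.6 ± 13.7 (SD, n = 4) for QZ1-lo, and the log2 fold change was 1.36 (SE 0.38, edgeR adjusted p = 0.0283). Without QZ1-hi replicate 1 the log2 fold change was 0.80 (adjusted p = 0.0524), and the call was also lost without QZ1-hi replicate 2 (1.36, adjusted p = 0.0537), without QZ1-lo replicate 2 (1.42, adjusted p = 0.0564), without QZ1-lo replicate 3 (1.36, adjusted p = 0.0607) and without QZ1-lo replicate 4 (1.20, adjusted p = 0.0717). With library size scaling alone it was 1.01 (adjusted p = 0.0618).

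Meg3 is a long noncoding RNA from the same chromosome 12 cluster as Dlk1, starting 77.7 kb beyond the end of that gene and expressed from the opposite parental copy. It (Entrez 17263) spans chr12:109541001-109571726, on the plus strand. QZ1-hi libraries held 92.6, 65.2, 47.4 and 74.7 CPM, and QZ1-lo libraries 41.4, 32.4, 35.3 and 43.2 CPM. The lowest QZ1-hi library exceeded the highest QZ1-lo library. With means of 70.0 ± 18.8 CPM (SD, n = 4) and 38.1 ± 5.08 (SD, n = 4), the log2 fold change was 0.88 (SE 0.19, edgeR adjusted p = 0.00798). It kept its call without each library in turn (0.71 to 0.99), and lost it under library size scaling (0.42, adjusted p = 0.282).

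Further genes of this cluster were read beside Dlk1 and Meg3, since they are imprinted in opposite directions within it. The 6 tested genes, Begain, Dlk1, Meg3, Rtl1, Rian and Mirg, all had a log2 fold change above 0, with a median of 1.18. Of these 3 were called: Dlk1, Meg3 and Rian. Over all 15583 genes tested, 8133 had a value above 0, the median was 0.02 and 18.1% were called in either direction. Rian, a noncoding RNA that hosts small nucleolar RNAs, stood at 24.8 to 48.7 CPM in QZ1-hi and 14.2 to 20.8 CPM in QZ1-lo, without overlap (log2 fold change 1.11, SE 0.22, edgeR adjusted p = 0.00488). Rtl1, a retrotransposon-derived gene expressed from the paternal copy, had 1.24 (SE 0.46, adjusted p = 0.0902). Mirg, a microRNA host transcript, had 0.28 (SE 0.54, adjusted p = 0.795). Among QZ1-hi libraries, replicate 1 was the highest for Dlk1, Meg3, Rtl1 and Rian, replicate 2 for Begain and replicate 3 for Mirg. The ratio of Dlk1 to Meg3 CPM was 3.12, 2.14, 1.82 and 1.01 in QZ1-hi and 1.65, 2.03, 1.65 and 0.883 in QZ1-lo. Its mean was 2.02 ± 0.871 (SD, n = 4) and 1.55 ± 0.481 (SD, n = 4), and the populations overlapped (exact unpaired permutation test on log2 ratios, two-sided p = 0.4).

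**Figure D3:**
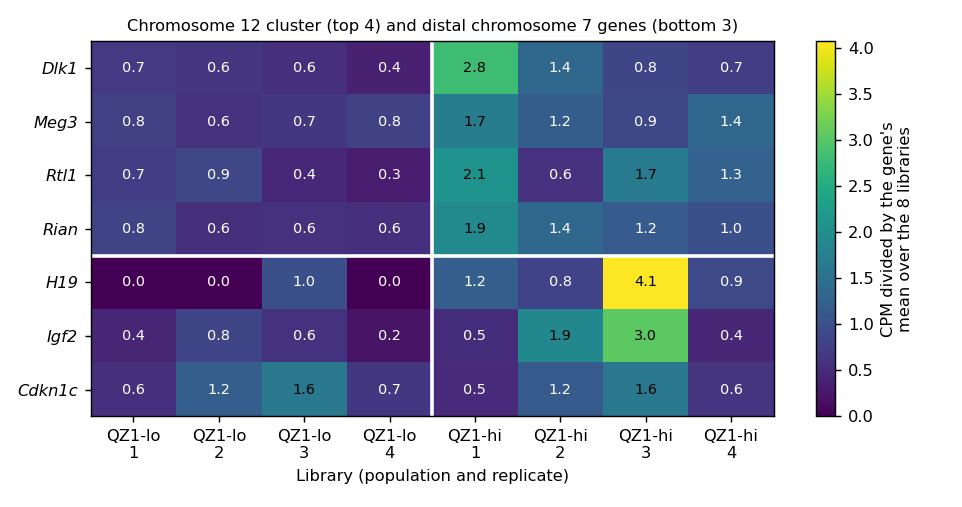
Level of 4 chromosome 12 cluster genes (top rows) and 3 distal chromosome 7 genes (bottom rows) in each library (columns, QZ1-lo left and QZ1-hi right), as CPM divided by that gene's mean over the 8 libraries, with the number printed in each cell. Dlk1, Meg3, Rtl1 and Rian are highest in QZ1-hi replicate 1, and H19, Igf2 and Cdkn1c reach their highest QZ1-hi value in replicate 3. Other genes of both regions, such as Begain, Mirg and Kcnq1, are not drawn and reach their highest QZ1-hi value in a different library.

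H19 is a maternally expressed long noncoding RNA, abundant in the fetus, whose exon holds the microRNA miR-675. It (Entrez 14955) lies on chr7:142575529-142578143, on the minus strand. The counts were 33, 19, 80 and 17 in QZ1-hi and 0, 0, 31 and 0 in QZ1-lo. All 4 QZ1-hi libraries and only 1 of the 4 QZ1-lo libraries, replicate 3, thus held any H19 count. In CPM these are 1.40, 0.938, 4.63 and 1.01, against 1.12 in QZ1-lo replicate 3, and the floor of 3 counts corresponds to 0.0894 to 0.179 CPM over the 8 libraries. The populations overlapped, because 2 QZ1-hi libraries fell below QZ1-lo replicate 3. The log2 fold change was 2.80 (SE 1.35, edgeR adjusted p = 0.2), and the exact permutation test gave a two-sided p of 0.0857. Leaving out QZ1-lo replicate 3 turned this into a call (edgeR adjusted p = 0.0049), but only QZ1-lo libraries with 0 counts then remain. The QZ1-hi mean was at least 17.9-fold higher than a floor of 3 counts per library there. With any other single library left out H19 was not called (edgeR adjusted p from 0.21 to 0.464). Those log2 fold changes ran from 1.97, without QZ1-hi replicate 3, to 3.08, without QZ1-hi replicate 4.

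Cdkn1c encodes p57Kip2, a cyclin-dependent kinase inhibitor that halts the cell cycle, and lies 880.2 kb from H19 in the same distal chromosome 7 region. The gene (Entrez 12577) spans chr7:143458339-143461050, on the minus strand. Values were 6.14, 14.1, 19.95 and 7.63 CPM in QZ1-hi and 6.98, 14.97, 19.97 and 8.06 CPM in QZ1-lo. The libraries of both populations covered the same range. Means were 11.96 ± 6.35 CPM (SD, n = 4) and 12.5 ± 6.12 (SD, n = 4), with a log2 fold change of -0.06 (SE 0.41, edgeR adjusted p = 0.944), whose sign depended on the library left out (-0.44 to 0.26). Of the 10 genes tested in this region 0 were called in edgeR (1 at an unadjusted p under 0.05, 0 in DESeq2 and 1 in limma-voom), with a median log2 fold change of 0.11. Over all genes tested 18.1% were called in edgeR in either direction and the median was 0.02. Igf2, the fetal growth factor next to H19, had 0.720, 2.57, 4.11 and 0.596 CPM in QZ1-hi and 0.596, 1.14, 0.796 and 0.287 in QZ1-lo (log2 fold change 1.49, SE 0.73, adjusted p = 0.205). Kcnq1ot1, the noncoding RNA over the Cdkn1c part of the region, had -0.13 (SE 0.29, adjusted p = 0.834). In QZ1-hi, H19, Igf2 and Cdkn1c were all highest in replicate 3. Of the 10 tested genes of the region 5 were highest there, 3 in replicate 1, 1 in replicate 2 and 1 in replicate 4. In QZ1-lo, H19 and Cdkn1c were highest in replicate 3 and Igf2 in replicate 2.

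Mest encodes a protein of the alpha/beta-hydrolase fold that marks growing mesoderm and fat tissue. The gene (Entrez 17294) lies on chr6:30723547-30748465, on the plus strand. QZ1-hi held 5.76, 2.77, 4.97 and 1.91 CPM and QZ1-lo 1.64, 1.99, 1.12 and 1.76 CPM. Of the QZ1-hi libraries 3 were above all QZ1-lo libraries, while replicate 4 fell below QZ1-lo replicate 2. The mean was 3.85 ± 1.81 CPM (SD, n = 4) against 1.63 ± 0.369 (SD, n = 4), and the log2 fold change of 1.24 (SE 0.43) missed the threshold in edgeR (adjusted p = 0.0693). It passed in DESeq2 (1.24, adjusted p = 0.0311), with a minimum of 10 counts in every library (adjusted p = 0.0493), and without QZ1-hi replicate 4 (1.49, adjusted p = 0.0311). Of the Mest exon bases, 23.1% lie opposite exons of Copg2, a coat protein gene on the other strand, whose log2 fold change was -0.36 (SE 0.22, adjusted p = 0.333). The library kit keeps strand, but the strand setting of the counting is not given in the sources used here, so reads of Mest and Copg2 cannot be told apart there, and in the same way 30.7% of the Cdkn1c exon bases lie opposite Gm44732.

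Peg3 encodes a large zinc-finger protein, and Plagl1 a zinc-finger transcription factor known for slowing the cell cycle. Peg3 (Entrez 18616, chr7:6703892-6730431, minus strand) stood at 6.02, 7.95, 9.42 and 9.30 CPM in QZ1-hi and 2.12, 5.13, 6.40 and 1.39 CPM in QZ1-lo. The populations overlapped by a single library on each side, QZ1-hi replicate 1 and QZ1-lo replicate 3. Its means of 8.17 ± 1.58 CPM (SD, n = 4) and 3.76 ± 2.39 (SD, n = 4) gave a log2 fold change of 1.12 (SE 0.43, edgeR adjusted p = 0.105). Peg3 passed in limma-voom (1.47, adjusted p = 0.0193) and without QZ1-lo replicate 3 (1.51, adjusted p = 0.0364). Zim1, its imprinted neighbour, had 13, 23, 17 and 4 counts in QZ1-hi and 0 in each QZ1-lo library, a mean at least 6.56-fold above a floor of 3 counts per library, and was too low to be tested.

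Plagl1 (Entrez 22634, chr10:13060504-13131694, plus strand) varied more within QZ1-hi than between the populations. It held 2.54, 12.4, 5.09 and 4.35 CPM in QZ1-hi and 6.08, 7.89, 10.3 and 5.98 CPM in QZ1-lo. QZ1-hi replicate 2 was above every QZ1-lo library and the other QZ1-hi libraries were below every one of them. The means were 6.09 ± 4.34 CPM (SD, n = 4) and 7.56 ± 2.02 (SD, n = 4), and the log2 fold change was -0.31 (SE 0.42, edgeR adjusted p = 0.7).

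Compared per length, as CPM per kilobase of exon in GENCODE M21, Dlk1 was the most abundant of the 9 in both populations, with a mean level of 26.1 for QZ1-hi and 10.2 for QZ1-lo. Next in QZ1-hi came Cdkn1c with 5.87, Grb10 with 5.00 and Meg3 with 3.87, and then Ndn with 1.61, Mest with 0.976, H19 with 0.811, Plagl1 with 0.779 and Peg3 with 0.613. In QZ1-lo the order after Dlk1 was Cdkn1c with 6.13, Grb10 with 2.15, Meg3 with 2.11, Plagl1 with 0.966, Mest with 0.413, Peg3 with 0.282, Ndn with 0.196 and H19 with 0.114. Neighbours in these orders had overlapping library ranges, except Dlk1 and Cdkn1c, and Meg3 and Ndn, in QZ1-hi, and Cdkn1c and Grb10, Meg3 and Plagl1, and Plagl1 and Mest in QZ1-lo. Over its RefSeq length of 1652 bases the level of Ndn was 3.60 for QZ1-hi, which keeps its place between Meg3 and Mest. For QZ1-lo it was 0.437, above Mest and Peg3, so its place there depends on the annotation. The other genes were not compared over RefSeq lengths, so whether their places depend on the annotation was not tested.

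**Figure D4:**
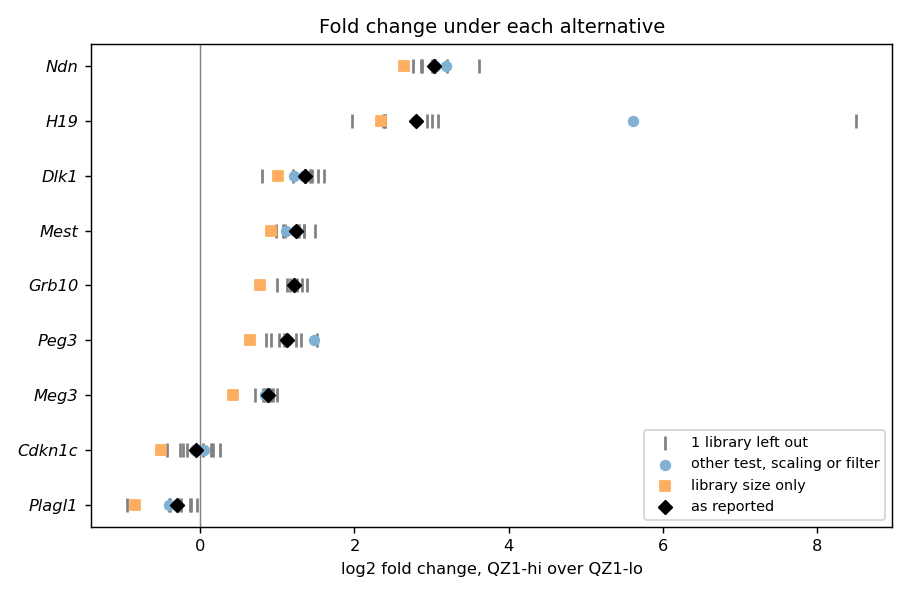
Log2 fold change of QZ1-hi over QZ1-lo for each gene (horizontal axis) as reported (black diamond), with another test, scaling or filter (blue), with library size scaling alone (orange) and with 1 library left out (grey tick). Ndn stays at 2.64 or above in every setting with a value, Cdkn1c falls on both sides of 0, and H19 has the widest range, 1.97 to 8.51, whose upper end is a fitted value against libraries with no H19 count.

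Other imprinted genes were read from a list of 54, of which 53 had a row and 36 were tested. There 4 were called higher and 0 lower in edgeR, where 9.88% of all genes tested were called higher. The median log2 fold change was 0.15 over the 36, and 2 were lower at an unadjusted p under 0.05, 0 in DESeq2 and 0 in limma-voom. Dcn, which encodes the matrix proteoglycan decorin and is imprinted in mouse placenta, rose most, averaging 377 ± 164 CPM (SD, n = 4) in QZ1-hi against 42.1 ± 28.2 (SD, n = 4) in QZ1-lo (log2 fold change 3.16, SE 0.53, adjusted p = 0.0018). Sgce, encoding epsilon-sarcoglycan, had 1.25 (SE 0.27, adjusted p = 0.00838), and Peg13, a noncoding RNA, 0.64 (SE 0.18, adjusted p = 0.0268). The fourth was Rian, described above. The Peg13 call was lost without QZ1-hi replicate 3 (0.47, adjusted p = 0.0899), QZ1-lo replicate 1 (0.62, adjusted p = 0.07) or QZ1-lo replicate 4 (0.54, adjusted p = 0.0712). Igf2r, the receptor that clears IGF2, was at 98.5 to 140.8 CPM in QZ1-hi and 140.3 to 193.5 CPM in QZ1-lo (log2 fold change -0.40, SE 0.15, adjusted p = 0.0989).

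**Figure D5:**
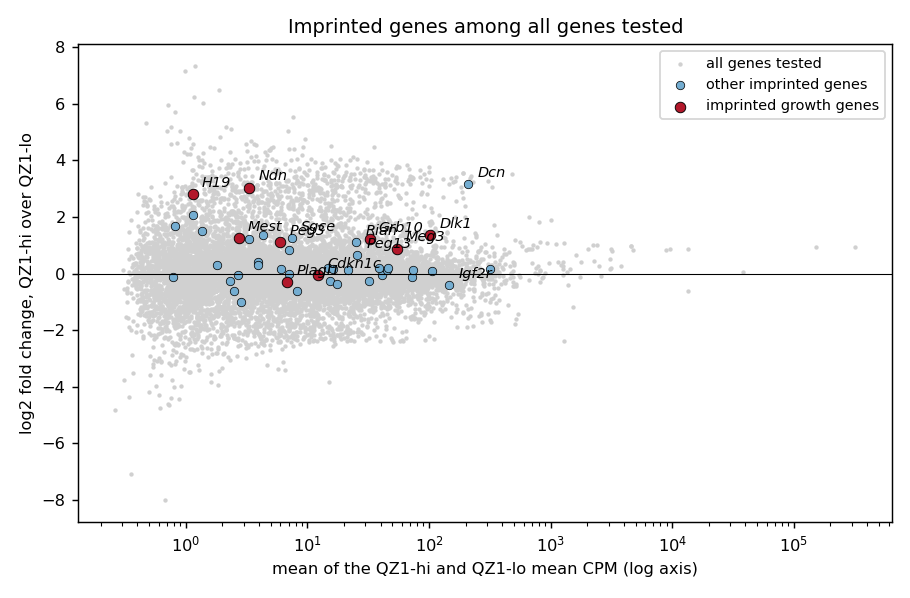
Log2 fold change of QZ1-hi over QZ1-lo (vertical axis) against the average of the population means in CPM (horizontal log axis) for all 15583 genes tested (grey), the 36 other imprinted genes (blue) and the 9 imprinted growth genes (red). Ndn, H19 and Dcn lie near 3, while Cdkn1c, Plagl1 and most other imprinted genes lie near 0.

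Relatives of the 9 genes were tested to see whether the difference extended to their non-imprinted paralogs. Of 8 tested relatives 0 were called higher and 1 lower, where 18.1% of all genes tested were called in either direction. Their median log2 fold change was -0.31, and 1 was higher at an unadjusted p under 0.05, 1 in DESeq2 and 0 in limma-voom. The one called was Grb7, an adaptor of the Grb10 family, at 7.15 to 9.14 CPM in QZ1-hi and 10.3 to 17.0 in QZ1-lo (-0.70, SE 0.21, edgeR adjusted p = 0.036). That call was lost without QZ1-hi replicate 1, 3 or 4 or QZ1-lo replicate 1 or 3 (adjusted p from 0.0721 to 0.0988) and in limma-voom (-0.60, adjusted p = 0.0642). Grb14, the other adaptor of that family, had -0.48 (SE 0.15, adjusted p = 0.05, just over the threshold). Beside Cdkn1c, the kinase inhibitors Cdkn1a and Cdkn1b had -0.29 (SE 0.14, adjusted p = 0.214) and -0.34 (SE 0.14, adjusted p = 0.143). Maged2, a MAGE gene like Ndn, had 0.85 (SE 0.28, adjusted p = 0.0559), and Plagl2, a paralog of Plagl1, -0.66 (SE 0.29, adjusted p = 0.15).

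Among 12 genes that act with these proteins, receptors and adaptors of insulin and IGF signaling and the cyclins and kinases that Cdkn1c restrains, 1 was called higher and 1 lower. Over all genes tested 18.1% were called in either direction. Irs1, a docking protein of both receptors, was at 0.78 on the log2 scale (SE 0.20, edgeR adjusted p = 0.0188), a call lost without QZ1-hi replicate 2, QZ1-hi replicate 3 or QZ1-lo replicate 2 (adjusted p = 0.0634, 0.0569 and 0.0521) and under library size scaling (0.29, adjusted p = 0.492). Igf1r, the receptor of IGF1 and IGF2, had -0.50 (SE 0.13, adjusted p = 0.0244), and lost its call without QZ1-hi replicate 1 or 4 or QZ1-lo replicate 2 or 3 (adjusted p from 0.0564 to 0.0644). Of 12 proliferation genes, 1 was called higher, where 9.88% of all genes tested were. This was Mki67, the Ki-67 antigen, with 0.51 (SE 0.16, edgeR adjusted p = 0.0469). Of the fits that left out a library it kept the call only without QZ1-lo replicate 4, with an adjusted p of 0.064 to 0.131 in the others, and under library size scaling it was at 0.04 (adjusted p = 0.915). Rows for 7 microRNAs of these clusters held 0 counts in all libraries for 6 of them. Mir335, which lies in a Mest intron, had 9 and 4 counts in QZ1-hi replicates 3 and 4. The libraries were made with a total RNA kit and not a small RNA kit, so these counts do not show whether the mature microRNAs were present.

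Markers of several cell types also differed between the populations, where 18.1% of all genes tested were called in either direction and 9.88% higher. In bulk RNA, fewer cells of a type and less RNA per cell cannot be told apart. Endothelial markers were called higher in 12 of 13, summing to 1849 to 3823 CPM in QZ1-hi and 361 to 640.4 in QZ1-lo. Fibroblast markers were called higher in 7 of 11 tested, at 785.9 to 1633 CPM against 25.9 to 195.3, pericyte markers in 4 of 6, at 186.3 to 324.1 against 19.9 to 59.2, and mesothelial markers in 3 of 3, at 29.7 to 208.0 against 5.44 to 27.5. The part of these cells in the differences of Ndn, Grb10, Meg3 and Dlk1 was not tested. No marker on these lists was at 0 throughout a population.

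The remaining marker lists gave mixed, opposite or no calls. Epithelial markers were called lower in 8 of 12 and higher in 1, with sums of 5484 to 9822 CPM in QZ1-hi and 6404 to 9480 in QZ1-lo, and ciliated cell markers were lower in 3 of 3, at 18.0 to 51.4 against 95.5 to 184.7. Of 3 smooth muscle markers 1 was higher and 1 lower (13.3 to 27.5 CPM against 7.45 to 12.1), and of 7 red cell and platelet markers 2 were higher (139.7 to 1019 against 284.1 to 3104). Of 8 leukocyte markers 0 were called in edgeR, with 367.9 to 780.1 CPM in QZ1-hi and 385.2 to 628.9 in QZ1-lo, and likewise 0 at an unadjusted p under 0.05, in DESeq2 and in limma-voom. QZ1-hi replicate 3 and QZ1-lo replicate 3 had the highest endothelial, pericyte and fibroblast sums of their populations, and each also held the highest level of 4 of the 9 genes within its population. H19, Peg3 and Cdkn1c were among the 4 in both, joined by Grb10 in QZ1-hi and Plagl1 in QZ1-lo. Other genes ran the opposite way, since QZ1-hi replicate 3 held the lowest QZ1-hi Meg3 level (47.4 CPM) and QZ1-lo replicate 3 the lowest QZ1-lo Mest level (1.12 CPM). QZ1-lo replicate 4, with the lowest pericyte and fibroblast sums, held the lowest QZ1-lo level of 5 of the 9, Dlk1, Grb10, Ndn, Peg3 and Plagl1, and the highest QZ1-lo level of Meg3 (43.2 CPM).

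Depth limits the low genes. Total counts ran from 18380918 to 26847938 per library, and mitochondrial ribosomal RNA took 39.5% to 58.4% of them in QZ1-hi and 30.2% to 47.3% in QZ1-lo. The part of this share in the differences was not tested. A fit with mitochondrial and ribosomal RNA removed called 4 of the 9 genes higher, and 1544 of 15565 over all genes. That fit leaves the counts of all other genes as they were and is no test of that part. Floors and counts cover counting error only, since without molecular identifiers several reads can stem from 1 molecule.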

How the data were processed

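Bulk RNA-seq was made from 4 QZ1-hi and 4 QZ1-lo libraries with a stranded SMARTer total RNA kit. Rsubread was used by the authors to count reads per gene, and the deposited values are these raw counts, not normalized, for 27179 Entrez Gene identifiers. The build is mm10 in the submitters' processing notes, and the aligner, annotation and strand setting are not given in the sources used here. A symbol was matched to 25275 identifiers.

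Populations were compared with edgeR 4.0.16 in R 4.3.3: TMM scaling, filterByExpr (minimum count 10, total 15) and its quasi-likelihood test on 15583 genes, Benjamini-Hochberg adjusted, threshold 0.05, common dispersion 0.113. The SE was taken from the fold change and its F statistic (absolute log2 value over the root of F). Exact permutation tests used all 70 assignments of 4 in 8 libraries (log2 of CPM + 1 for levels), with a smallest p of 0.0286. The floor was 3 counts. Alternatives were DESeq2 1.42.0, limma 3.58.1 (voom with quality weights), DESeq2 size factors, library size alone, no filter, at least 10 counts in every library, mitochondrial and ribosomal RNA removed, a threshold of 0.01 and leaving out each library. Those for relatives, partners and proliferation genes were chosen after seeing the data. The procedure was tested on simulated data. Exon lengths, overlaps and coordinates come from GENCODE M21 (GRCm38, which is mm10) and upstream sequences and microRNA positions from RefSeq (GRCm38.p6).

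The 9 genes and all lists were chosen with earlier results of these data known. Named were all 9 genes, any relative, partner, proliferation gene or hosted microRNA, the called genes of the other imprinted list, Igf2 and Igf2r. Other genes of the clusters, Zim1 and Copg2 fall outside this rule and were named after their values were seen. Replicates are numbered in accession order, in which QZ1-hi and QZ1-lo libraries alternate. Whether same-numbered libraries share a mouse is not given in the sources used here, so all tests are unpaired. The series calls them biological replicates, and p values measure the spread between these libraries.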

Additional observations from a re-analysis of the deposited data

Results flagged for a closer look

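In 18 groups of 4 libraries (9 genes in 2 populations), 1 library lay far from the other 3 in 2 cases, both for H19, where chance gives about 1 in 20 groups. H19 stood at 4.63 CPM in QZ1-hi replicate 3, with a gap to the next library that made up 0.875 of the range of the group, and at 1.12 CPM in QZ1-lo replicate 3, the only QZ1-lo library with H19 counts, where the gap was the whole range (1.0). QZ1-hi replicate 3 and QZ1-lo replicate 3 also had the highest summed endothelial, pericyte and fibroblast markers of their populations. The sums were 3823, 324.1 and 1633 CPM in QZ1-hi replicate 3 and 640.4, 59.2 and 195.3 CPM in QZ1-lo replicate 3. The part of those cells in the H19 level was not tested.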

How the results depend on the processing

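Of 132 alternative values for the 9 genes, 112 kept both direction and side of the threshold, 8 lost the call, 7 gained one and 5 changed sign. All 5 changes of sign were of Cdkn1c, at 0.05 in limma-voom and between -0.44 and 0.26 with 1 library left out. Scaling by library size alone gave 882 genes called higher and 2509 lower over all genes (1540 and 1280 as reported), 1 of the 9 genes higher (Ndn), and 1 higher and 4 lower among other imprinted genes. It moved the median over all genes to -0.44. An adjusted p under 0.01 gave 902 higher and 665 lower. DESeq2 called 5 of the 9 (Mest added) and 7 other imprinted genes higher, and 1876 of the 17955 genes with an adjusted p. In limma-voom 6 of the 9 were called higher (H19, 5.62, adjusted p = 0.00884, and Peg3 added), and 1697 of 15583 over all genes. With 1 library left out, 3 to 5 of the 9 and 3 to 7 other imprinted genes were called higher. Over all genes 1136 of 16011 (without QZ1-hi replicate 3) to 1506 of 15904 (without QZ1-hi replicate 4) were called higher. In each alternative run 0 of the 9 were called lower. H19 had no value in DESeq2 or with at least 10 counts in every library, nor did Ndn and Igf2 under that filter. No paired analysis was possible from the labels, because the replicate numbers follow accession order alone. The sources used here do not say which libraries share a mouse. Cdkn1c, Dlk1, Hba-a1 and Alas2 kept the same order of replicates in both populations, while Meg3 and Ndn did not. The tests are unpaired, and how pairing by mouse would move them was not tested. Low counts limit H19, Ndn and Mest, which had 0 to 155 counts per library.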

Other observations

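Cdkn1c levels came in the same steps in both populations: 6.14, 7.63, 14.1 and 19.95 CPM in QZ1-hi and 6.98, 8.06, 14.97 and 19.97 CPM in QZ1-lo, each sorted from low to high. From low to high these were replicates 1, 4, 2 and 3 in both populations. Dlk1 and the red cell genes Hba-a1 and Alas2 also kept the same order of replicates in both populations, while Meg3 and Ndn did not. The numbers follow accession order, and no label says whether libraries with the same number share a mouse. Within each population the highest Cdkn1c level was 3.25 times the lowest in QZ1-hi and 2.86 times in QZ1-lo.

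Htr2a, which encodes a serotonin receptor and is on the other imprinted list, was too low to be tested, but held 1.82, 0.741, 2.02 and 0.417 CPM in QZ1-hi and 0.179, 0.122, 0.253 and 0.0409 CPM in QZ1-lo, without overlap. Klf14, a single-exon transcription factor gene beside Mest, had 52 counts in QZ1-lo replicate 3 and 0 in the other libraries. Both genes were named after their values were seen.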
